A study of Mus musculus with 18 samples.

Results

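LPS (lipopolysaccharide, a cell wall component of Gram-negative bacteria) was compared with control in resting BV-2 cells, that is, in cells that received no cannabinoid. BV-2 is an immortalized mouse microglial cell line, so every sample comes from 1 line and not from separate animals. The comparison rests on the 3 samples labelled LPS (title numbers 23, 29 and 35) and the 3 labelled Ctrl (22, 28 and 34) of the 18 samples of the series. By the methods of the study, cells received 100 ng/ml LPS for 4 h. The other 12 samples are CBD, THC, CBD_LPS and THC_LPS, 3 of each, with 10 μM of the cannabinoid CBD (cannabidiol) or THC (tetrahydrocannabinol) added 2 h before LPS or alone for 6 h. The study calls its control cells untreated, and it is not given in the sources used here whether they received the ethanol in which the cannabinoids were dissolved. Nor do the sources used here say whether the 3 samples of a group were separate cultures. The p-values measure the spread between samples of a group, pooled over the 6 groups of the series, and this spread may be technical.

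Small RNA was measured as sequencing reads per miRNA feature. A feature is either the entry of a hairpin (written mir) or that of a mature arm (written miR), and each has its own value. Whether reads counted for a hairpin entry come from the precursor itself or from shorter pieces of it is not given in the sources used here. Of 2134 listed features, the 1363 with at least 10 reads summed over the 18 samples were tested, namely 642 of 855 hairpins and 721 of 1279 mature miRNAs, and 1361 of them had a read in an LPS or Ctrl sample. At the threshold itself, 42 features had exactly 10 reads and reached at most 6.84 CPM in these 6 samples, and 47 features had 9 reads, reached at most 5.13 CPM and were left out. CPM here is the read count relative to the library size, scaled further by a TMM factor that corrects for library composition. The 3 Ctrl samples held 442718, 595482 and 760136 reads and the 3 LPS samples 742150, 842970 and 1057147, so that 3 reads, taken as the floor, amounted to between 3.09 and 6.38 CPM. Floors and counting intervals cover counting error only, because PCR copies of 1 molecule are counted as separate reads. In bulk RNA, fewer cells with a miRNA and less of it per cell cannot be told apart.

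A miRNA is cut from its hairpin first by Drosha in the nucleus and then by Dicer in the cytoplasm, which leaves a duplex of a 5p and a 3p arm. One arm is usually kept in an Argonaute protein and the other is mostly degraded, and bases 2 to 8 of the kept arm, the seed, pair with target mRNAs. LPS is sensed by Toll-like receptor 4 and activates NF-κB, and in macrophages and microglia miR-155, miR-146a and miR-21 are the best known miRNAs of that response: miR-155 promotes inflammatory signalling, miR-146a dampens it by targeting Irak1 and Traf6, and miR-21 lowers Pdcd4.

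With LPS, 13 of the 1363 tested features rose (0.954%) and 1 fell (0.0734%) at a Benjamini-Hochberg adjusted p of at most 0.1 by limma. They are 4 hairpins and 10 mature arms. The miR-155, miR-21, miR-146 and miR-221/222 families, with 22 tested features, held 9 of the 13. The others that rose were mir-20a and miR-20a-3p, miR-145a-3p and miR-10b-5p, and the feature that fell was miR-5123. In each of the 14 the LPS samples lay entirely on one side of the Ctrl samples. Over all tested features, every LPS sample was above every Ctrl sample in 76 (5.58%) and below in 52 (3.82%). The study's criterion combines a significance limit of 0.005, taken here as an unadjusted limma value, with a change of 1.5-fold or more. With it 19 features were higher (1.39%) and 2 lower (0.147%). Scaled by library size instead of TMM, 17 were higher and 6 lower, and with DESeq2, 14 higher and 6 lower. At the adjusted threshold DESeq2 called 13 higher and 3 lower. These 21 include all 14, and the other 7 were mir-222, miR-146a-5p, mir-706, miR-1897-3p, miR-154-3p and miR-3079-5p, higher with LPS, and miR-25-5p, lower.

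The sequences below are those of the mature miRNAs on which the results turn, from RefSeq (GRCm38.p6), 5′ to 3′, with the seed (bases 2 to 8) in capitals. The first 9 are the called mature arms that have a printed sequence, shown because their 9 seeds all differ, so that no pair of them shares the letters that choose targets.
miR-155-5p: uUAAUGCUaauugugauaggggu
miR-155-3p: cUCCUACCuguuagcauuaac
miR-21a-5p: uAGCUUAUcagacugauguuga
miR-21a-3p: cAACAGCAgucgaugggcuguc
miR-146a-3p: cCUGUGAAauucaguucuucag
miR-221-5p: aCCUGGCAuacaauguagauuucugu
miR-20a-3p: aCUGCAUUacgagcacuuaaag
miR-10b-5p: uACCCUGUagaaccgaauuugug
miR-5123: uGUAGAUCcauaugccauggugug
The next set shows tested features that share a seed with an arm called by either rule: miR-10a-5p with miR-10b-5p, miR-146b-5p with miR-146a-5p and miR-21c with miR-21a-5p.
miR-10a-5p: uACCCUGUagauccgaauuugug
miR-146a-5p: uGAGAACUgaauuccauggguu
miR-146b-5p: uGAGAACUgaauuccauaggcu
miR-21c: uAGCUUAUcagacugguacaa
The last 4 are arms of miR-20a, miR-25 and miR-221, shown because the report compares both arms of these hairpins.
miR-20a-5p: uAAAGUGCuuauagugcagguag
miR-25-5p: aGGCGGAGacuugggcaauugc
miR-25-3p: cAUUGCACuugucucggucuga
miR-221-3p: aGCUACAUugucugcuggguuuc

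**Figure D1:**
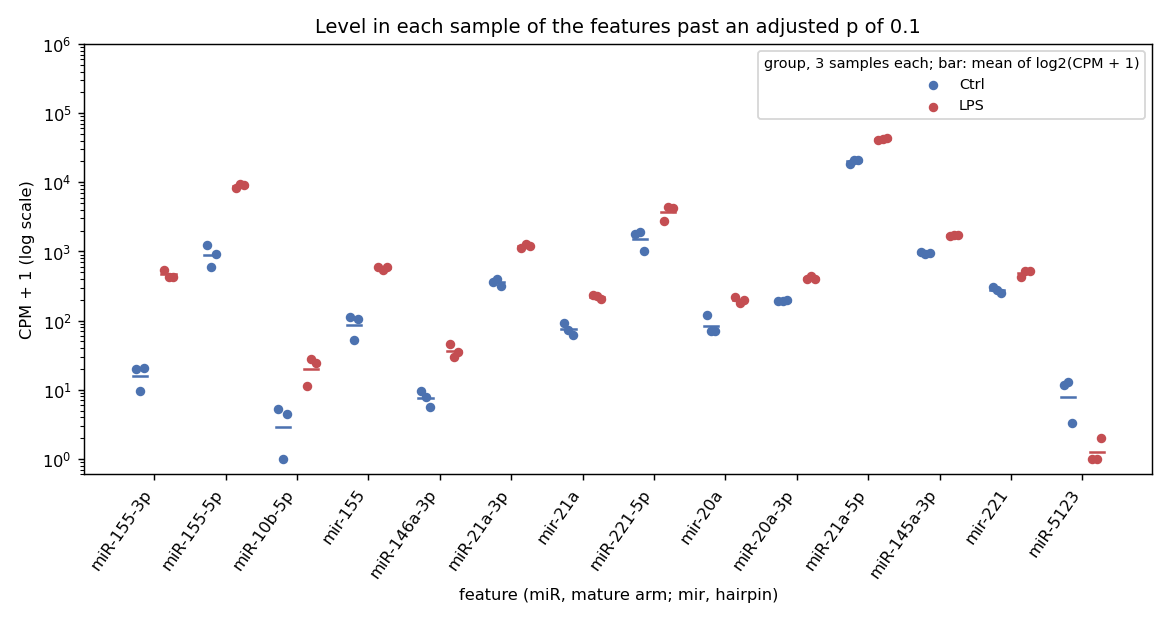
Level of the 14 features past an adjusted p of 0.1 in each sample, as CPM + 1 on a log scale. Points are samples, 3 Ctrl (blue) and 3 LPS (red), and bars are the mean of log2(CPM + 1). The LPS samples are all above the Ctrl samples in 13 features and all below in miR-5123.

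The miR-155 hairpin lies at chr16:84714140-84714204 on the plus strand (GRCm38), in an exon of its host transcript Mir155hg, which is itself induced by NF-κB. All 3 of its features rose. miR-155-5p, the arm usually kept in Argonaute, stood at 1248, 598 and 919 CPM in Ctrl 22, 28 and 34 and at 8157, 9334 and 9273 CPM in LPS 23, 29 and 35. The lowest LPS sample was thus far above the highest Ctrl sample, and the change was 10.1-fold (log2 fold change 3.33, SE 0.22, adjusted p = 1.66e-08). The 3p arm held 19.1, 8.55 and 19.8 CPM in Ctrl and 539, 432 and 431 CPM in LPS, which was the largest log2 fold change of the tested features at 29.3-fold (4.87, SE 0.31, adjusted p = 1.66e-08). The hairpin stood at 111, 51.3 and 105 CPM in Ctrl and at 602, 545 and 592 CPM with LPS, 6.81-fold higher (2.77, SE 0.25, adjusted p = 1.94e-06). Folds here are on the log2(CPM + 1) scale, which understates changes from low levels. Ctrl 28 was the lowest sample in all 3 features. All 3 calls were kept in each of the 20 alternative analyses, and the log2 fold change of miR-155-5p ranged from 3.05 to 3.65 over them.

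The arms of miR-155 did not rise equally. The 3p arm made up 1.68% ± 0.379 (SD, n = 3) of the reads of both arms in Ctrl and 5.02% ± 1.02 with LPS. The ratio of 3p to 5p rose by 1.54 on the log2 scale (SE 0.27, adjusted p = 0.0119 over 191 miRNAs, limma on within-sample log2 differences). The 5p arm remained by far the more abundant in every sample.

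mir-21a lies at chr11:86584067-86584158 on the minus strand, within an exon of the protein-coding gene Vmp1. All 3 of its features rose. miR-21a-5p, which ranked 8 of the tested features by mean level, stood at 18555, 21046 and 20936 CPM in Ctrl and at 40674, 42682 and 44087 CPM with LPS. The groups were tight and far apart, at 20179 ± 1407 and 42481 ± 1715 CPM (SD, n = 3), a 2.11-fold change (log2 1.08, SE 0.19, adjusted p = 0.00656). miR-21a-3p held 366, 395 and 312 CPM in Ctrl and 1106, 1266 and 1186 CPM with LPS (3.32-fold, adjusted p = 0.000111). The hairpin held 91.4, 71.8 and 60.6 CPM in Ctrl and 235, 224 and 202 CPM with LPS (2.96-fold, adjusted p = 0.00594). These 3 calls were also kept in each of the 20 alternatives.

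The share of the 3p arm of miR-21a was 1.75% ± 0.246 in Ctrl and 2.72% ± 0.143 with LPS (SD, n = 3 each). The log2 ratio of the arms rose by 0.66 (SE 0.19), which did not pass (adjusted p = 0.170). The 4 other members, hairpins and mature forms of mir-21b and mir-21c, were below 12 CPM in every sample. miR-21c, with the seed of miR-21a-5p, had 2.13, 11.97 and 4.66 CPM in Ctrl and 11.8, 10.6 and 8.24 CPM in LPS, so that the groups overlapped (log2 0.86, adjusted p = 0.966). Its sequence is close to that of miR-21a-5p, and how reads fitting both were divided is not given in the sources used here.

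mir-146a lies at chr11:43374397-43374461 on the minus strand. miR-146a-5p, its main arm, stood at 6591, 4569 and 6634 CPM in Ctrl and at 10482, 12064 and 10411 CPM with LPS. The groups did not overlap and the difference was 1.87-fold (log2 0.91, SE 0.28), past the study's criterion but not the adjusted threshold (adjusted p = 0.291). It passed in 3 of 20 alternatives, 1 of them being samples 28 to 39 alone, which drop 1 sample from each group (adjusted p = 0.000464). miR-146a-3p, a minor arm, held 8.51, 6.84 and 4.66 CPM in Ctrl and 44.5, 29.1 and 33.99 CPM with LPS. In reads these are 12 in Ctrl against 89 in LPS, and it rose 4.84-fold (log2 2.28, SE 0.46, adjusted p = 0.0200). Without Ctrl 34 or LPS 23 its adjusted p was 0.130 and 0.110. Its hairpin held 479, 371 and 373 CPM in Ctrl and 447, 619.6 and 569 CPM in LPS, with overlapping groups (log2 0.42, adjusted p = 0.901).

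The 3p share of miR-146a was 0.116% ± 0.0411 in Ctrl and 0.330% ± 0.0908 with LPS (SD, n = 3 each). The difference of 1.37 in the log2 ratio of the arms (SE 0.50) did not pass (adjusted p = 0.355). miR-146b-5p, which has the seed of miR-146a-5p but comes from another locus, stood at 6072, 3863 and 7609 CPM in Ctrl and at 6644, 7062 and 5855 CPM with LPS. Its groups overlapped (log2 0.21, SE 0.26, adjusted p = 0.966, 95% interval -0.34 to 0.75). Neither the hairpin nor the 3p arm of mir-146b passed, with log2 fold changes of 0.11 and -0.07.

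mir-221 and mir-222 lie 1 beside the other on the minus strand of the X chromosome, chrX:19146294-19146971, and both lower Cdkn1b and Kit in other cells. All 6 of their features had a positive log2 fold change, with a median of 0.83 against 0.11 over all tested features, and 2 passed. miR-221-5p stood at 1780.0, 1895 and 1009 CPM in Ctrl and at 2767, 4427 and 4203 CPM with LPS (2.47-fold, log2 1.31, SE 0.30, adjusted p = 0.0490). The hairpin mir-221 stood at 302, 279 and 252 CPM in Ctrl and at 432, 522 and 513 CPM with LPS (1.76-fold, adjusted p = 0.0816). In both, no LPS sample reached down to a Ctrl sample. The call of miR-221-5p was lost without Ctrl 34, LPS 29 or LPS 35, with adjusted p from 0.266 to 0.339, with the 2 groups alone (0.264) and without the mean-variance trend (0.197). That of mir-221 was lost whichever of the 6 samples was left out (adjusted p from 0.110 to 0.397). It was also lost in 6 other alternatives, from edgeR (0.105) to the fit without the trend (0.296), and mir-221 passed in 8 of 20 in all.

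The remaining 4 features of the pair are given by value. mir-222 stood at 17471, 17446 and 11030.2 CPM in Ctrl and at 27044, 31464 and 29839 CPM with LPS, past the study's criterion (1.96-fold) with an adjusted p of 0.103. It passed in 8 of 20 alternatives, among them library-size scaling (0.0149), and not when any sample was left out. This hairpin feature exceeded miR-222-3p, its main arm, in each of the 6 samples, unlike mir-155, mir-21a, mir-146a, mir-20a and mir-221, which lay below theirs. miR-221-3p, the main arm of mir-221, held 6620.4, 10246 and 7308 CPM in Ctrl and 9746, 16249 and 17235 CPM with LPS (log2 0.82, SE 0.34, adjusted p = 0.784). LPS 23 lay below Ctrl 28 here, so the groups overlapped. miR-222-5p did not overlap (log2 0.83, adjusted p = 0.762), and miR-222-3p did (log2 0.21, adjusted p = 0.966).

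The miR-17~92 cluster is a polycistron of 6 hairpins, chr14:115043671-115044506 on the plus strand, in the host transcript Mir17hg, and is known for promoting proliferation. Of its 18 tested features 2 rose, both of mir-20a, and the median log2 fold change was 0.06. miR-20a-3p stood at 194, 188 and 198 CPM in Ctrl and at 403, 439.6 and 402 CPM with LPS. Its samples were among the closest within each group, at 193 ± 4.996 and 415 ± 21.6 CPM (SD, n = 3), and it rose 2.14-fold (log2 1.10, SE 0.20, adjusted p = 0.00682), a call kept in each of the 20 alternatives. The hairpin mir-20a held 119, 70.1 and 68.7 CPM in Ctrl and 216, 181 and 195 CPM with LPS (2.35-fold, log2 1.23, SE 0.26, adjusted p = 0.0260). Its call was lost without Ctrl 28, Ctrl 34 or LPS 23 (adjusted p from 0.110 to 0.171), with scaling by library size (0.193) and with the 2 groups alone (0.264).

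miR-20a-5p, the main arm of the same hairpin, did not pass. It held 1835, 1464 and 2052 CPM in Ctrl and 2087, 1568 and 1846 CPM with LPS (log2 0.04, SE 0.18, 95% interval -0.33 to 0.42). The 3p share was 9.91% ± 1.33 in Ctrl and 18.6% ± 2.94 with LPS (SD, n = 3 each), and the log2 ratio of the arms rose by 1.05 (SE 0.26, adjusted p = 0.0745). That call was lost on leaving out any sample except LPS 23. Leaving out Ctrl 28 gave the smallest adjusted p of those losses, at 0.102, and LPS 29 the largest, at 0.363. It was also lost with the share of reads in 3 hairpins described at the end as a covariate (0.106). Of the neighbours in the cluster, miR-92a-3p, the most abundant feature of all, stood at 181562, 124809 and 129464 CPM in Ctrl and at 142225, 120542 and 111308 CPM with LPS (log2 -0.21, adjusted p = 0.966), and miR-17-5p had a log2 fold change of -0.02. The other arms of the polycistron lay between -0.48 (miR-19b-1-5p) and 0.33 (miR-19b-3p), none past the threshold.

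The paralogous miR-106b~25 cluster lies within Mcm7. miR-25-5p, its minor arm, stood at 229.7, 113 and 155 CPM in Ctrl and at 75.8, 47.7 and 56.6 CPM with LPS, so that all LPS samples were below all Ctrl samples. It was lower by the study's criterion (0.375-fold, log2 -1.42, SE 0.38), with an adjusted p of 0.143, and it passed in 5 of 20 alternatives. miR-25-3p, the main arm, stood at 8416 ± 1091 and 8254 ± 997 CPM (SD, n = 3 each, log2 -0.03, 95% interval -0.34 to 0.29). The log2 ratio of 3p to 5p rose by 1.39 (SE 0.34, adjusted p = 0.0745), a call lost on leaving out any sample except LPS 23 (adjusted p from 0.102 to 0.363). Also lower in every LPS sample were miR-93-3p (log2 -0.64, adjusted p = 0.784) and mir-106b (log2 -0.81, adjusted p = 0.822), neither past the test. Together the miR-17~92 cluster and its paralogues had 36 tested features with a median log2 fold change of 0.04.

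**Figure D2:**
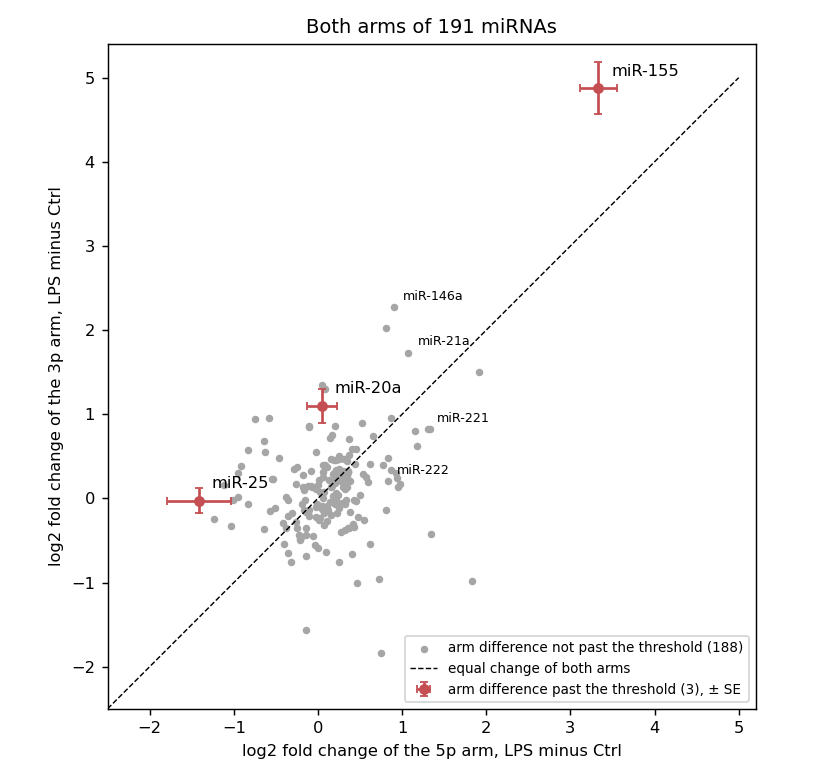
Log2 fold change (LPS minus Ctrl) of the 5p arm on the horizontal axis and of the 3p arm on the vertical axis, 1 point for each of 191 miRNAs with both arms tested. The dashed line marks equal change, and red points with SE bars are the 3 miRNAs whose arm difference passed an adjusted p of 0.1, miR-155, miR-20a and miR-25, all above the line.

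Across the 191 miRNAs of which both arms were tested, the arm ratio changed in 3 (1.57%), the 3 described above, and in each the 3p arm gained on the 5p arm. The median arm difference over the 191 was -0.04, 86 were above 0, and 12 had an unadjusted p under 0.05. In miR-155 and miR-20a the gaining arm is the minor one, and in miR-25 it is the major one. Fitted on the 6 samples of the 2 groups alone, none of the 3 passed (adjusted p of 0.172, 0.307 and 0.238 for miR-155, miR-20a and miR-25). Without Ctrl 22, Ctrl 28, Ctrl 34, LPS 29 or LPS 35 only miR-155 passed, and without LPS 23 there were 5 calls. Hairpins were compared with their main arm in the same way. Of 451 hairpins 0 passed (0%) by limma, 27 had an unadjusted p under 0.05, and edgeR and DESeq2 were not run on these ratios. The log2 difference of mir-20a to miR-20a-5p was higher by 1.19 (SE 0.31, adjusted p = 0.332), and the difference of mir-155 to miR-155-5p was -0.57 (adjusted p = 0.769).

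miR-10b lies among the Hoxd genes, chr2:74726070-74726137 on the plus strand. miR-10b-5p held 2, 0 and 3 reads in Ctrl and 8, 20 and 23 reads in LPS. All LPS samples were above all Ctrl samples, and the 2.79 rise in log2(CPM + 1) passed (SE 0.67, adjusted p = 0.0681). Over summed reads the ratio of LPS to Ctrl was 7.83, with an exact 95% counting interval of 3.15 to 25.2. The Ctrl values lie below the floor of 3 reads or at it. Without Ctrl 28, Ctrl 34, LPS 29 or LPS 35 the call was lost (adjusted p from 0.114 to 0.386), as it was with the 2 groups alone (0.496) and with a pseudocount of 0.5 (0.102). DESeq2 gave miR-10b-5p no adjusted p. miR-10a-5p, with the same seed, did not pass (log2 0.02, adjusted p = 0.991), and the hairpin mir-10b, with 6 reads over the 18 samples, and miR-10b-3p, with 1, were not tested.

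miR-145a-3p stood at 983, 919.9 and 937 CPM in Ctrl and at 1657, 1741 and 1729 CPM with LPS. The replicates were close, at 946 ± 32.4 and 1709 ± 45.6 CPM (SD, n = 3), and the change of 1.81-fold passed (log2 0.85, SE 0.19, adjusted p = 0.0390). The call was lost on leaving out any sample except Ctrl 22, with adjusted p from 0.110 to 0.195, and without the mean-variance trend (0.257). miR-145 is best known from smooth muscle, where its 5p arm is abundant and it is made together with miR-143. Here miR-145a-5p had 3 reads and the hairpin mir-145a 6 reads over the 18 samples, and miR-143-3p held 12.4 to 29.1 CPM with overlapping groups (log2 -0.20, adjusted p = 0.966). The signal under this name was thus almost all on the 3p arm, and whether those reads come from this locus was not tested.

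miR-5123, from an intron of B4galt1 (chr4:40850056-40850138, minus strand), was the only feature past the adjusted threshold that fell. It had 5, 7 and 2 reads in Ctrl and 0, 0 and 1 in LPS. The fall by 2.65 in log2(CPM + 1) passed (SE 0.64, adjusted p = 0.0681), and the ratio of summed reads was 0.0549, with an exact 95% counting interval of 0.00130 to 0.361. Leaving out Ctrl 22, Ctrl 28, LPS 23 or LPS 29 lost the call (adjusted p from 0.263 to 0.385), as did the 2 groups alone (0.452), samples 28 to 39 (0.237), a minimum of 1 read (0.112) and edgeR (0.105). DESeq2 gave miR-5123 no adjusted p, and edgeR's own expression filter left it out. The hairpin mir-5123 had 0, 0 and 1.17 CPM in Ctrl and 2.62, 7.94 and 1.03 CPM in LPS. Its groups overlapped (adjusted p = 0.784), and its log2 difference to the mature form was 4.29 higher with LPS, which did not pass (adjusted p = 0.180).

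The remaining features called by the study's criterion alone were scarce. miR-1897-3p had 0 reads in each Ctrl sample and 3, 2 and 4 in LPS. miR-154-3p, of the imprinted Dlk1-Dio3 region, had 0 in each Ctrl sample and 2, 2 and 4 in LPS, and miR-3079-5p had 0 in each and 1, 4 and 2. Both groups were at or near the floor of 3 reads in these features, so no fold is given, and the LPS libraries were the deeper ones on average. mir-706 had 1, 5 and 9 reads in Ctrl and 15, 17 and 22 in LPS (log2 1.69, adjusted p = 0.277). None of the 4 passed the adjusted threshold, and none passed it in any of the fits that left out a sample.

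**Figure D3:**
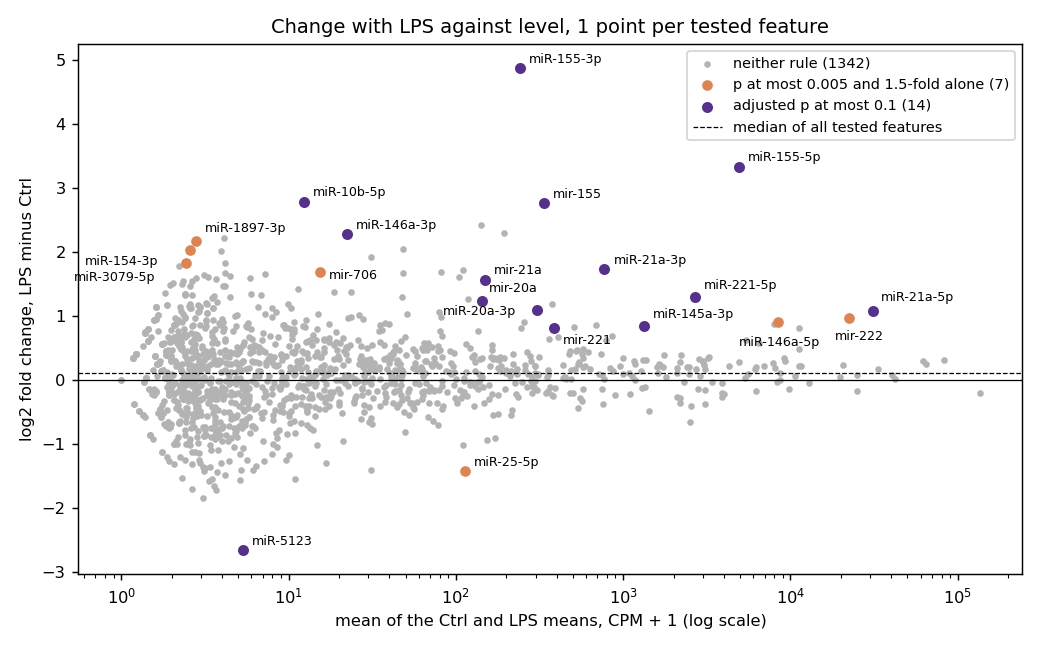
Log2 fold change (LPS minus Ctrl) of the 1363 tested features on the vertical axis against their mean level, CPM + 1 on a log scale. Purple points are the 14 features past an adjusted p of 0.1, orange points the 7 past the study's criterion alone, and the dashed line is the median of all tested features at 0.11. The spread is widest at low levels.

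The precision of a change differed with depth. Among the 702 features with 10 to 99 reads over the series the median SE was 0.68, and 1 was called. The median SE was 0.48 in 381 features with 100 to 999 reads (2 called) and 0.30 in 176 features with 1000 to 9999 reads (6 called). In the 104 features with 10000 reads or more it was 0.22, and 5 were called. In fold terms the median 95% interval reached 2.70-fold either side of the estimate in the first class and 1.38-fold in the last.

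Other families are given by counts. Of 22 lists of families and clusters, 14 had no call by limma. These 14 hold 274 features, and edgeR and DESeq2 called 0 of them as well. Over all 1363 features limma called 14, edgeR 12 and DESeq2 16. By limma 13 of the 274 had an unadjusted p under 0.05, next to 80 of all 1363. DESeq2 gave some scarce features no adjusted p, miR-154-3p of these lists among them. The medians of the 14 lists lay between -0.14 and 0.40, against 0.11 over all features. All 1363 moved up by 0.11 in the median with TMM scaling, but by -0.02 with scaling by library size and by 0.03 with RLE factors (limma in each case), and the median was -0.08 in the DESeq2 fit. Changes are reported as fitted, and the list medians here are with TMM.

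One of these lists holds miRNAs named in Toll-like receptor signalling. Of 26 tested features of miR-9, miR-132, miR-212, miR-147, miR-187, miR-125, miR-223 and miR-105, 0 passed and 0 had an unadjusted p under 0.05, and the median was 0.01. Of all 1363 features, 14 passed and 80 had an unadjusted p under 0.05 by limma, so few would fall in a list of 26. miR-132-3p, which rises in stimulated monocytes in other work, stood at 812, 489 and 566 CPM in Ctrl and at 557, 412 and 392 CPM with LPS (log2 -0.44, adjusted p = 0.901). miR-125b-5p, which targets Tnf, had 1492 ± 396 CPM in Ctrl and 1811 ± 622 CPM with LPS (SD, n = 3 each), and its groups overlapped. miR-9-5p was lower in every LPS sample, with 14.9, 13.7 and 10.5 CPM in Ctrl and 9.15, 6.62 and 5.15 CPM in LPS, and did not pass (adjusted p = 0.904).

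Among the abundant housekeeping families, let-7 and miR-98 (34 features, median 0.12), miR-30 (19, 0.11), miR-181 (16, 0.02), miR-232724 (17, 0.18) and miR-15/16 with relatives (21, 0.23) had no call. let-7f-5p stood at 19057 ± 4980.0 CPM in Ctrl and 22179.8 ± 3271 CPM with LPS, miR-30d-5p at 41747 ± 3023 and 42333 ± 3936, and miR-16-5p at 39166 ± 3193 and 41248 ± 3731 (SD, n = 3 each). The list with miR-191-5p, a reference miRNA of the study's quantitative PCR, had 19 features, a median of 0.25 and no call. Of the 19, 15 had a positive log2 fold change, next to 785 of all 1363. All LPS samples were above all Ctrl samples in 5 of the 19, next to 76 of all 1363 (5.58%). miR-191-5p itself stood at 59685 ± 7901 and 70408 ± 2507 CPM with overlapping groups. miR-181a-5p varied within each group, from 14622 CPM in LPS 23 to 49125 CPM in LPS 29, so its log2 fold change of 0.17 carried an SE of 0.61.

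The miR-29 family, which targets collagens, had no call. Of its 11 features 9 were above 0, next to 785 of all 1363, and the median was 0.31. All LPS samples were above all Ctrl samples in 3 of the 11, next to 76 of all 1363 (5.58%). mir-29c held 6.38, 1.71 and 9.32 CPM in Ctrl and 14.4, 18.5 and 12.4 CPM with LPS (log2 1.43, adjusted p = 0.405). miR-29b-3p held 68.1, 73.5 and 58.3 CPM in Ctrl and 94.2, 90.0 and 93.7 CPM with LPS (log2 0.48, adjusted p = 0.821). The miR-34/449 family, regulators downstream of p53, had 12 tested features and no call. miR-34a-5p was at 65.4 ± 11.8 and 78.7 ± 21.9 CPM, and miR-449a-5p was listed at 0 in all Ctrl samples and at 2.06 to 2.65 CPM with LPS. The imprinted Dlk1-Dio3 cluster (58 tested features, median 0.04) and the Sfmbt2 cluster (23, 0.37) had no call. The list of 226 late-numbered entries, to which miR-5123 belongs, had a median of 0.14 and 13 of its 226 features at an unadjusted p under 0.05, next to 80 of all 1363.

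**Figure D4:**
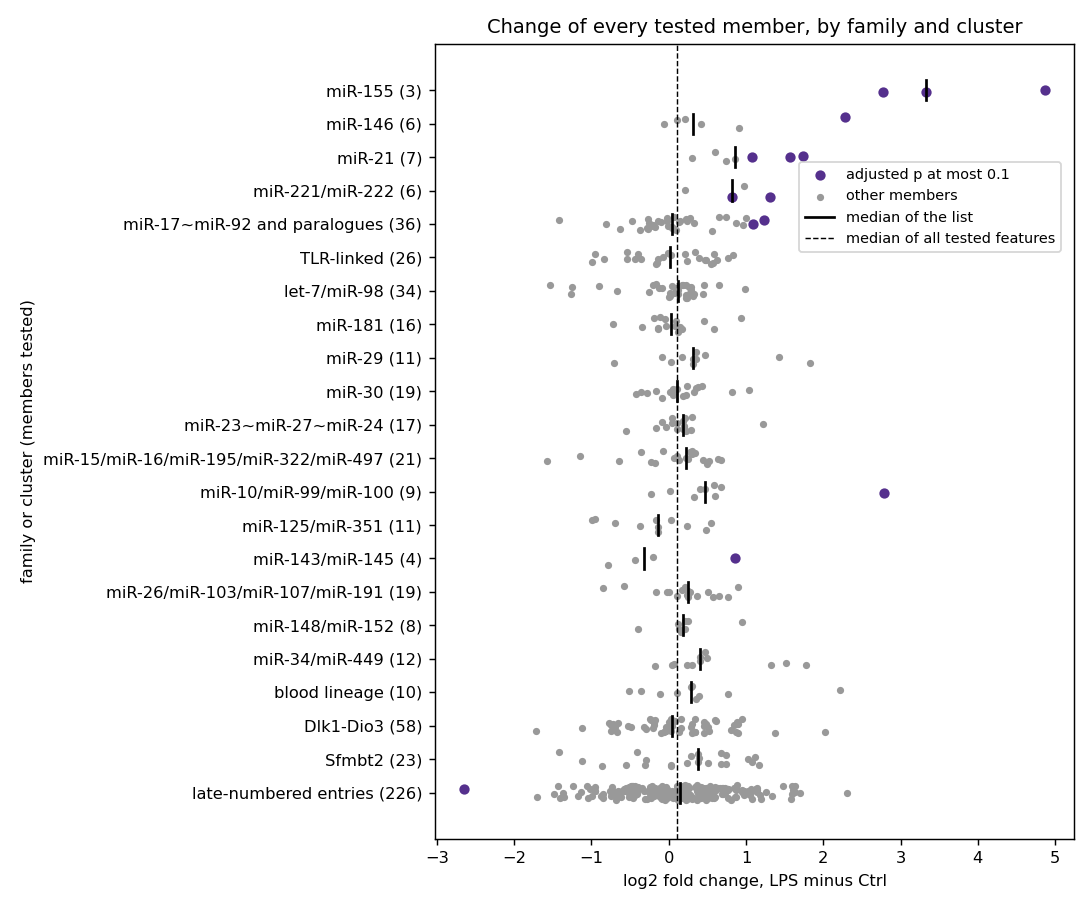
Log2 fold change (LPS minus Ctrl) of each tested member of 22 families and clusters, with the number of members in brackets. Purple points passed an adjusted p of 0.1, black bars are list medians, and the dashed line is the median of all tested features at 0.11. Called members lie in 8 of the lists, and all members of miR-155, miR-21 and miR-221/222 lie to the right of 0.

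The same treatment was tested in 2 further pairs of groups, CBD_LPS against CBD and THC_LPS against THC, which share no sample with LPS against Ctrl, although all 3 fits share 1 estimate of the spread. In cells with CBD 15 features passed (1.1%) and in cells with THC 11 (0.807%). Of the 14 features called in resting cells, 12 had the same sign in the CBD pair and 8 passed there. In the THC pair 13 had the same sign and 10 passed. Over all 1363 features the same sign was seen in 56.6% and 49.8%. miR-155-3p rose by 4.75 and 4.91 on the log2 scale, next to 4.87 in resting cells, and miR-155-5p by 2.64 and 3.83, next to 3.33.

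The 3 features of mir-21a and miR-146a-3p were positive in each pair. miR-21a-3p rose by 1.44 with CBD and 1.58 with THC, and miR-146a-3p by 2.23 and 1.93. miR-21a-5p passed with THC (0.87) and not with CBD (0.56, adjusted p = 0.323). miR-20a-3p passed with THC (0.91) and not with CBD (0.39, adjusted p = 0.497). The 2 scarce features differed most: miR-10b-5p had -0.66 with CBD and 2.50 with THC, neither past the threshold, and miR-5123 had 0.71 and 0.32, opposite to its fall in resting cells. Whether the effect of LPS differed between cells with and without a cannabinoid was tested directly. No interaction passed for CBD or THC by limma (65 and 51 features at an unadjusted p under 0.05, smallest adjusted p 0.524 and 0.652), and edgeR also called 0 in each. In samples 28 to 39 alone, with 2 samples a group, 134 interactions with CBD and 0 with THC passed, and 47 features passed in LPS against Ctrl.

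**Figure D5:**
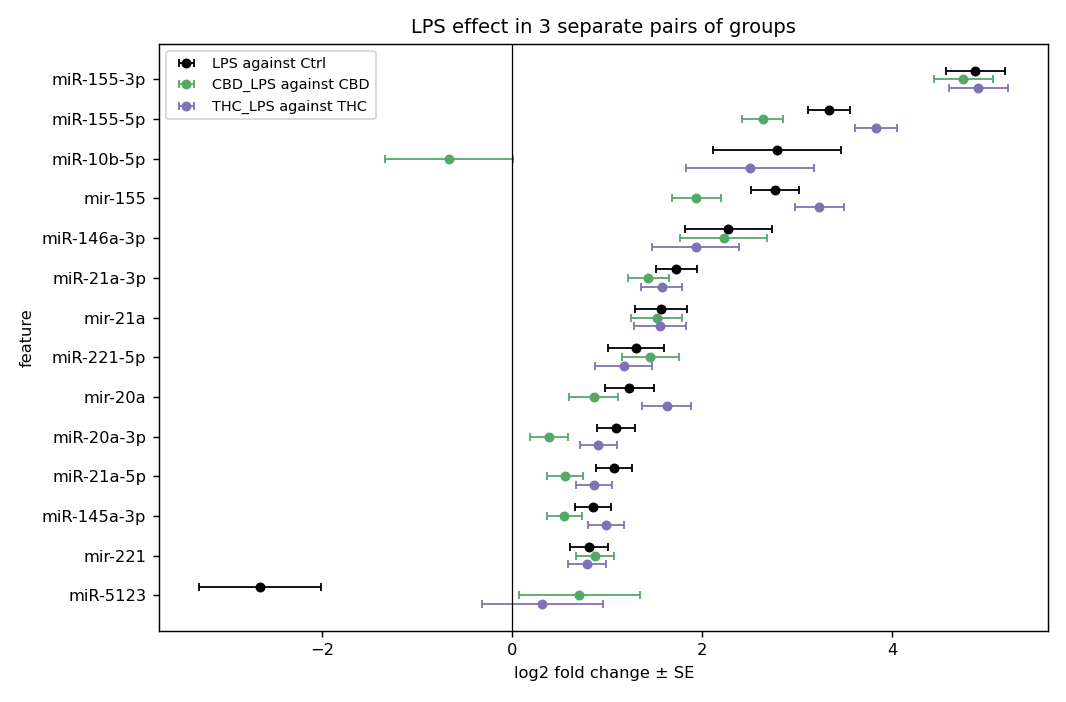
Log2 fold change with SE of the 14 called features in 3 pairs of groups, LPS against Ctrl (black), CBD_LPS against CBD (green) and THC_LPS against THC (purple), 3 samples a group. The features of mir-155, mir-21a, mir-20a and mir-221 lie to the right of 0 in each pair, miR-10b-5p lies to the left with CBD, and miR-5123 lies to the left in resting cells alone.

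The libraries were not alike within a group. Ctrl 22 stood apart from the other Ctrl samples, with a Spearman correlation across features of 0.789 and 0.809 to them, against 0.899 between Ctrl 28 and 34 and 0.876 to 0.905 within LPS. By the chi-square of reads over features per degree of freedom, LPS 23 stood apart as well. It was 72.3 and 74.4 between LPS 23 and the other LPS samples, but 3.04 between LPS 29 and 35. Between Ctrl samples it ran from 51.6 to 94.5. Of all reads, mir-6236, mir-6243 and mir-6240 together took 0.204% of the reads in Ctrl 22, 3.81% and 2.41% in Ctrl 28 and 34, and 1.68% to 1.91% in LPS. Without Ctrl 22, 13 features passed the adjusted threshold, 12 of them among the 14. For the cell type, 3 myeloid miRNAs (miR-142, miR-223 and miR-342) were summed, and all 6 of their listed arms had a read. The sum was 9486 to 12165 CPM in Ctrl and 12112 to 15994 CPM in LPS. Most of it was miR-142-5p, typical of blood-derived cells, at 7254 to 12346 CPM, so it says little about miR-223 and miR-342. The sum of 5 neuronal miRNAs, 6 of whose 8 listed arms had a read, was 467 to 678 CPM in Ctrl and 446 to 551 CPM in LPS. It was mostly miR-128-3p, with miR-124-3p and miR-137-5p at 0 in all 6 samples. miR-141-3p, known from epithelium, was also high at 6496 to 8955 CPM and higher in each LPS sample than in any Ctrl sample (log2 0.26, adjusted p = 0.949), while miR-205-5p had no read. The summed level of 6 epithelial miRNAs, 11 of whose 12 listed arms had a read, was 6884 to 8307 CPM in Ctrl and 8637 to 9323 CPM in LPS. Its part in the results was not tested.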

How the data were processed

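By the methods of the study, total RNA with small RNAs was sequenced, and the authors mapped reads with BWA (version not given in the sources used here) against mouse miRBase entries, allowed up to 10 mappings per read, counted known miRNAs and used edgeR. The deposited signal values are CPM scaled by edgeR's TMM factors. In each sample they were whole multiples of the smallest value above 0 (tolerance 0.001 reads, 100% of values), and TMM factors recomputed on those reads differed from the deposited scaling by at most 4.86e-10 in relative terms.

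Tests used log2(CPM + 1) and limma 3.58.1 (mean-variance trend, R 4.3.3) in a model of all 18 samples and 6 groups, which share 1 estimate of the spread. Features needed 10 reads over the 18 samples. Tests were 2-sided, with Benjamini-Hochberg adjustment over all features tested and a threshold of 0.1. Arm and hairpin ratios were fitted in the same way on within-sample log2 differences. Groups were taken from the labels, and title numbers served as names. No number is shared by groups, so samples were not paired.

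The members, lists, tests and alternatives were chosen with earlier results of these data known. Named features were those called by either rule with their other arm, hairpin and cluster neighbours, the most abundant and the smallest-p member of each list, and the 10 most abundant mature miRNAs. Others were named after their values were seen: mir-21b and mir-21c, the mir-146b features, miR-10a-5p, mir-106b, miR-93-3p, miR-132-3p, miR-9-5p, miR-29b-3p, the marker miRNAs and the hairpins named for library composition or for large differences. Alternatives were other pseudocounts, filters, scalings, sample sets and covariates, edgeR 4.0.16 (quasi-likelihood) and DESeq2 1.42.0 on the recovered reads, and each sample left out. Positions are from GENCODE on GRCm38 (620 of 642 tested hairpins matched by name) and mature sequences from RefSeq (600 of 721 matched). On simulated counts of the 1363 features, 200 of those with at least 100 reads were raised 4-fold. Of these 99% were recovered, with 21 false calls, and none was called where nothing changed. Recovery of features with fewer reads, or of changes smaller than 4-fold, was not simulated.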

Additional observations from a re-analysis of the deposited data

How the results depend on the processing

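The reported counts are 14 features past the adjusted p, 21 past the study's criterion, 3 arm differences, 0 hairpin-to-arm differences, 15 and 11 features in the CBD and THC pairs, and 0 interactions with CBD. With samples 28 to 39 alone they became 47, 37, 7 and 1 for LPS against Ctrl, 230 for the CBD pair and 134 for the interaction with CBD. Of the 47, 36 were higher and 11 lower, and 13 were among the 14. Only the groups compared gave 9 features and 0 arm differences. A covariate for samples 22 to 27 gave 22 and 6, and with it mir-222, miR-146a-5p and miR-25-5p passed (adjusted p = 0.0185, 0.0835 and 0.0430 by limma). Hairpins alone gave 3 and 6 (by the adjusted p and the criterion), and a minimum of 100 reads gave 1 hairpin-to-arm difference. Leaving out each sample in turn gave 8 to 13 features past the adjusted p, 16 to 21 past the criterion, 1 to 5 arm differences, 0 to 1 hairpin-to-arm differences (1 without Ctrl 34 and 1 without LPS 35), 6 to 41 in the CBD pair and 7 to 13 in the THC pair. The CBD pair gave 41 without CBD 24, 7 without CBD 30, 6 without CBD_LPS 32 and 7 without CBD_LPS 38, and the THC pair 7 without THC 25 or THC_LPS 33. LPS against Ctrl gave 9 features without Ctrl 28, LPS 23 or LPS 29 and 8 without Ctrl 34. edgeR called 12 and DESeq2 16 features. The cause of these shifts was not tested. The sign of all 14 features held in every alternative run, and 7 of them, those of mir-155 and mir-21a and miR-20a-3p, passed in every one. No paired analysis was possible because the groups share no replicate number in the labels. With 3 samples a group and 10 to 99 reads over the series, changes under 2.70-fold were within the median 95% interval.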

Other observations

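In 3 hairpins with large positive log2 fold changes that did not pass, Ctrl 22 was at 0 and the other Ctrl samples were within or near the range of the LPS samples. mir-6361 was listed at 0 in Ctrl 22, at 253 and 291 CPM in Ctrl 28 and 34, and at 221, 209 and 189.5 CPM in LPS 23, 29 and 35 (log2 2.30, SE 2.06, adjusted p = 0.966 by limma). mir-1961 was listed at 0 in Ctrl 22, at 103 and 244 CPM in the other Ctrl samples and at 234, 146 and 112 CPM in LPS (log2 2.42, SE 1.60, adjusted p = 0.949). mir-1970 was listed at 0, 51.3 and 55.9 CPM in Ctrl and at 65.4, 55.6 and 55.6 CPM in LPS (log2 2.05, SE 1.30, adjusted p = 0.924). In all 3 hairpins the groups overlapped, and Ctrl 22 alone was at 0.

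Scarce features just outside the study's criterion, as applied here to limma values, are given in reads. miR-451b, of the erythroid miR-144/451 locus, had 0, 1 and 0 reads in Ctrl and 6, 3 and 5 in LPS. Its unadjusted p was 0.00538 by limma, whereas the study itself lists it as significantly upregulated by LPS. mir-337, of the Dlk1-Dio3 region, had 2, 3 and 3 reads in Ctrl and 0, 0 and 3 in LPS. miR-3107-3p had 2, 2 and 3 reads in Ctrl and 1, 0 and 0 in LPS, while miR-3107-5p had 9.32 to 21.3 CPM in Ctrl and 15.4 to 26.5 CPM in LPS with overlapping groups.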
